A study of Homo sapiens with 6 samples.

Results

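The genes described here encode the nuclear pore complex and the receptors that carry cargo through it. They were taken by name from the deposited gene table, as protein-coding genes named NUP, XPO or IPO with a number, KPNA, KPNB, TNPO or RANBP with a number, XPOT or RANGAP1. The rule found 43 of the 10542 listed genes. The study asked how transcription factor EB (TFEB), a regulator of lysosome genes, acts in prostate cancer cells. It compared the mRNA of DU145 cells, an established human prostate cancer cell line, in 2 groups of 3 libraries. DU145-TFEB cells had received a lentivirus that overexpresses TFEB, and DU145-vector cells a blank lentivirus, so both groups carry a viral insertion. The labels give no clones, no time after infection and no promoter for the TFEB insert. They do not say whether the 3 libraries of a group came from separate cultures, so p-values measure only the spread between these libraries, which may be technical.

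The nuclear pore is a channel through the nuclear envelope, built from nucleoporins in repeated rings: an outer ring (the Y complex), an inner ring, a central channel of FG-repeat proteins that form the barrier, a nuclear basket and cytoplasmic filaments. Importins bind cargo in the cytoplasm and release it in the nucleus when they meet the small GTPase Ran loaded with GTP, while exportins bind cargo together with Ran-GTP and release it in the cytoplasm, where RANGAP1 makes Ran hydrolyse its GTP. XPO1, also called CRM1, is the main exportin of proteins, and it carries TFEB itself out of the nucleus. TFEB binds DNA at the E-box letters CACGTG, often within the longer CLEAR motif of lysosome genes.

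XPO1 (ENSG00000082898, chr2:61477849-61538626, minus strand) was lower in every DU145-TFEB library than in any DU145-vector library. Its normalized counts, which are reads divided by 1 size factor per library, were 2048, 1778 and 2504 in DU145-TFEB against 6726, 7401 and 6397 in DU145-vector. The means were 2110 ± 367 and 6841 ± 512 (SD, n = 3), so XPO1 was 3.24-fold lower. The log2 fold change of DU145-TFEB over DU145-vector was -1.71 (SE 0.118, adjusted p = 3.86e-06 by limma on log2(normalized count + 1), Benjamini-Hochberg over all listed genes). TFEB, the gene that was overexpressed, had 6325, 6301 and 6036 normalized counts in DU145-TFEB, against 127, 124 and 125 in DU145-vector. It was 49.6-fold higher (log2 fold change 5.62, SE 0.075, adjusted p = 3.18e-10), in the direction of its label. Reads of the inserted copy and of the cell's own gene cannot be told apart. Per kb of gene length, TFEB stood at 6.40, 7.35 and 5.00 times the level of XPO1 in DU145-TFEB, and at 0.0393, 0.0347 and 0.0405 times that level in DU145-vector. The length used for TFEB is that of the listed gene. The length of the inserted copy is not given, so the ratios in DU145-TFEB may be off.

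Since TFEB binds CACGTG, the bases before the start sites of these genes were searched for it. RefSeq promoter sequences (GRCh38.p14) were matched for 38 of the 43 genes, as 48 windows of 250 bases before a start. CACGTG, which reads alike on both strands, occurred in 5 windows, or 10.4%, against 8.18% of the 11157 windows of all listed genes and 6.34% of all 35116 windows. These matches describe letters and show no binding. The sequences of the 5 genes are printed because TNPO2 rose while the other 4 fell. They run from 5′ to 3′ along the gene's strand with CACGTG in capitals. For XPO1, the stretch is chr2:61537118-61537337 on the minus strand, within the listed gene but between annotated exons. The motif begins 44 bases before 1 of 2 RefSeq starts matched for XPO1, and the window of the other start does not hold it.
XPO1: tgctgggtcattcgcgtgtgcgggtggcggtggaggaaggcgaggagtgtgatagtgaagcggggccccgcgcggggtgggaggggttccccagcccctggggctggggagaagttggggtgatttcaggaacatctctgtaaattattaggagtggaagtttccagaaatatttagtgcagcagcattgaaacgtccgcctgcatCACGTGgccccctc
The other 4 are stretches of 30 bases around the motif. That of TNPO2 (chr19:12723939-12723968, minus strand) lies in an untranslated part of an exon of TNPO2 in GENCODE 29. Its motif is 24 bases before 1 of 2 RefSeq starts.
TNPO2: ggcggctttctgCACGTGtttctcagccca
That of KPNA3 (chr13:49792731-49792760, minus strand) also lies in an untranslated part of an exon of its gene, with the motif 66 bases before the start.
KPNA3: accgcccccggtCACGTGtcgccagcctcc
That of IPO7 (chr11:9384502-9384531, plus strand) lies between genes, 138 bases before the start.
IPO7: agctcaggcagcCACGTGggctgcggactg
That of NUP50 (chr22:45163739-45163768, plus strand) lies 174 bases before 1 of 2 RefSeq starts, in an exon of the noncoding gene NUP50-DT, which runs the other way.
NUP50: cgttgccggcccCACGTGagccgacgcccc
The log2 fold changes of these genes were -1.71 for XPO1, 1.16 for TNPO2, -1.70 for KPNA3, -1.79 for IPO7 and -1.68 for NUP50. The 4 that fell and 1 that rose are split much as the 43 genes are, of which 81.4% were lower and 18.6% higher. Whether the letters bear on direction was not tested.

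In all, 35 of the 43 genes fell in DU145-TFEB against 8 rose, all with an adjusted p below 0.05. In the listed genes as a whole 52.4% fell and 47.6% rose, so nearly every listed gene passed the test and a pass says little. The table holds a part of the genes, and 3 of its 10542 had an absolute log2 fold change under 0.2. It may therefore have been selected for change between these same libraries, which was not tested. Passes, adjusted p-values and the lack of overlap thus carry little weight here. Of the pore and transport genes 81.4% were lower and 18.6% higher. The DU145-TFEB and DU145-vector libraries did not overlap for any of the 43 genes, and the same was true of 99.3% of all listed genes. Past both of the study's cutoffs, an absolute log2 fold change above 1.5 with an adjusted p below 0.05, were 15 genes that were lower (34.9%, against 16.5% of all listed genes) and 0 that were higher (against 2.54%). The median log2 fold change was -1.19, beside -0.36 over all listed genes. The log2 fold changes ran from -2.37 for RANBP2 to 1.16 for TNPO2, with standard errors from 0.064 to 0.301 and adjusted p-values from 2.30e-06 to 0.016. With DESeq2 on the recovered reads 8 genes passed both cutoffs (against 10.2% of listed genes that were lower), with edgeR 14 (against 14.5%) and with quantile normalization 9 (against 7.66%). The exact two-sided permutation p of each gene was 0.1, the smallest that 3 against 3 libraries can give. In bulk RNA, fewer cells with a transcript and less of it per cell cannot be told apart.

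**Figure D1:**
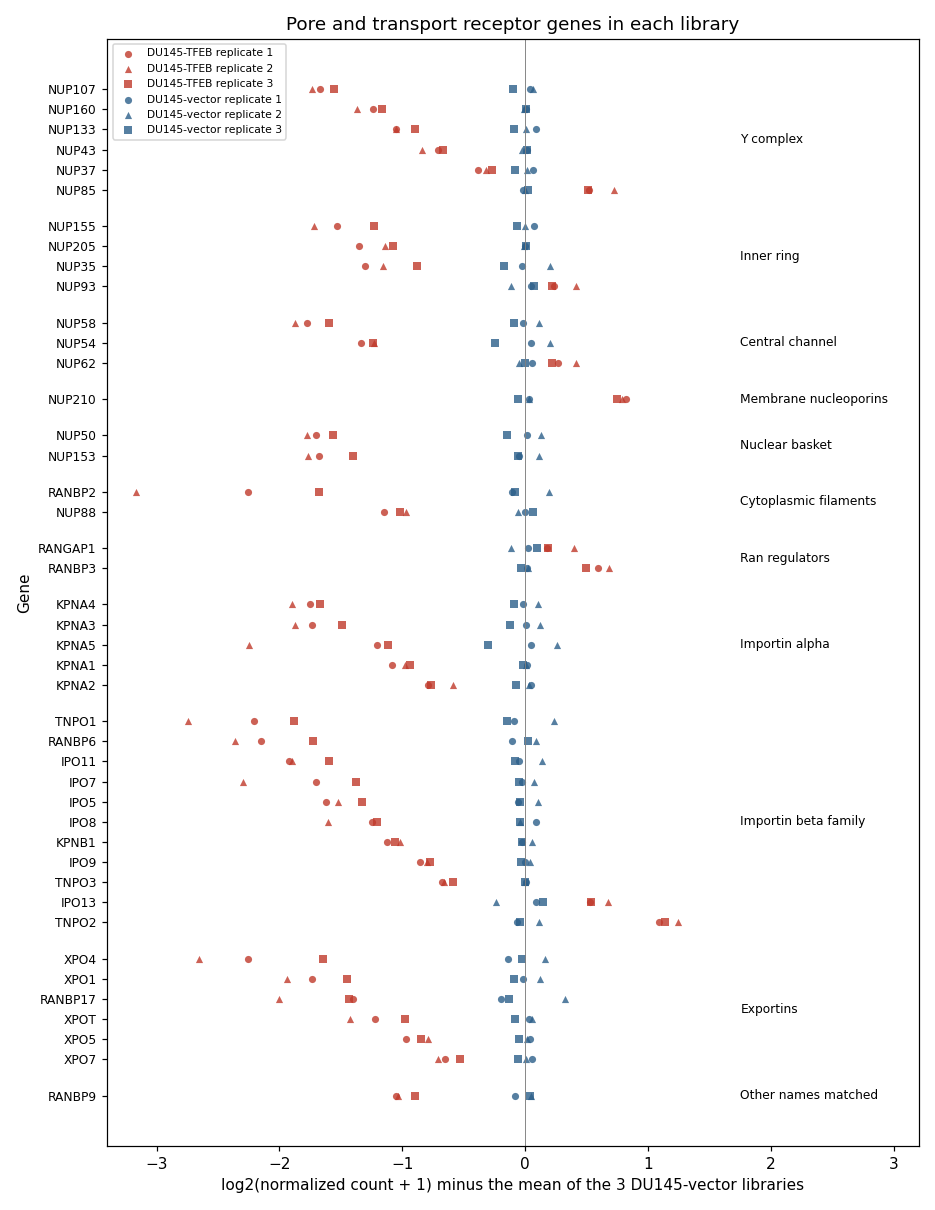
Each point is the log2(normalized count + 1) of a gene in a library minus the mean of the 3 DU145-vector libraries (x axis, log2 units), with genes grouped by role (y axis), red for DU145-TFEB and blue for DU145-vector. For 35 genes the red points all lie left of the blue ones and for 8 they lie right, of which RANBP3, IPO13, NUP62 and RANGAP1 turned to lower values, and NUP37 to a higher one, once the trend with GC content was removed.

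The libraries differed in ways that bear on all these values. Reads on the listed genes ranged from 13999961 to 16511477 per library, and no gene described here had under 42 reads in a library. The lowest counts were those of KPNA5 (42 reads) and RANBP17 (65 reads), on which counting error weighs most. DU145-TFEB replicate 2 stood furthest from its group, with a chi-square per gene of 14.1 and 27.2 against the other two libraries, which differed by 5.26. It held the lowest value of its group in 20 of the 35 lowered genes, replicate 1 in 15 and replicate 3 in 0. The median log2 difference of the lowered genes from the DU145-vector mean was -1.33, -1.52 and -1.20 in DU145-TFEB replicates 1, 2 and 3. The size of the changes thus varied between libraries. These genes were grouped by their mean change over the same libraries, so their shared direction follows from that grouping and says little. Without DU145-TFEB replicate 2 the number of genes past both cutoffs was 13. Among all 10542 listed genes 1289 were then lower past both cutoffs, against 1741 with every library.

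Transcript GC content moved with the groups as well. Against each gene's mean over the 6 libraries, log2 levels rose by 0.43, 0.56 and 0.32 for every 10% more GC in the DU145-TFEB libraries, and they changed by -0.39, -0.54 and -0.38 in the DU145-vector libraries. Because that mean is shared, the opposite sign in DU145-vector mirrors the DU145-TFEB slopes and is no separate observation. The 35 lowered genes had a GC content from 34.4% to 49.0% in their longest transcript, and the 8 raised genes from 46.8% to 59.1%. Each of the 7 genes above 50% GC rose, and NUP93 was the single raised gene below it. Across the 43 genes, which share the same 6 libraries, Spearman's rho between GC content and log2 fold change was 0.81 (Pearson's r 0.87), beside a rho of 0.74 over all listed genes. The genes described here were poorer in GC than the listed genes, with a median of 42.2% against 47.3%, and longer, with a median length of 7445 against 4979 bases. When the trend against GC content and length was removed from each library, 34 of the 43 genes were lower (against 53.7% of all listed genes) and 3 were higher (against 15.6%), but 0 passed both cutoffs (against 4.26% of listed genes on the lower and 1.43% on the higher side). Of the 35 lowered genes, 30 were lower in both readings, 4 lost their call and 1 turned higher. Of the 8 raised genes, 2 were higher in both, 2 lost their call and 4 turned lower. The median was then -0.61, beside -0.30 for all listed genes. A log2 fold change with this trend removed is called the GC-adjusted value below, and shares and ratios per kb are not adjusted unless stated. Whether the trend comes from the cells or from the preparation of the libraries was not tested.

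**Figure D2:**
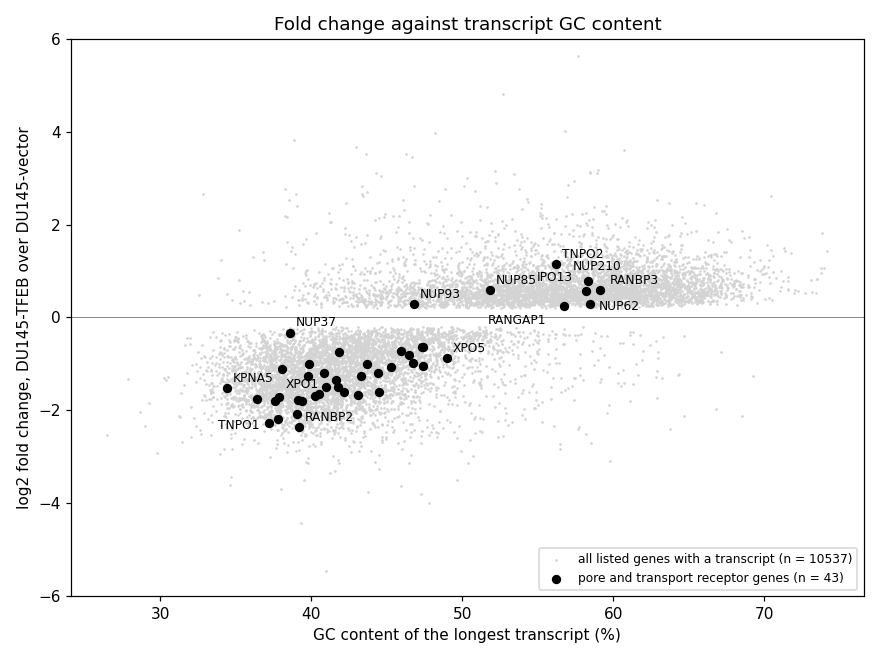
The log2 fold change of each gene (y axis, DU145-TFEB over DU145-vector) is plotted against the GC content of its longest transcript (x axis, %), in grey for all listed genes with a transcript and in black for the 43 pore and transport genes. The 7 black points above 50% GC all lie above 0, and 35 of the 36 below 50% lie below 0, as NUP93 alone was raised there.

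Of 7 exportins that fit the naming rule, 6 were listed, and all 6 were lower (100%, against 52.4% of all listed genes). Past both cutoffs were 3 of them with limma (50%, against 16.5%) and 1 with DESeq2 (16.7%, against 10.2%). All 6 stayed lower after GC adjustment (100%, against 53.7%), at -1.07 to -0.37. XPO4, which exports a small set of proteins and also imports some, was lowest, at 231, 176 and 353 normalized counts in DU145-TFEB, against 1006, 1241 and 1091 in DU145-vector. Its log2 fold change was -2.18 (SE 0.217, adjusted p = 1.60e-05, limma) and its GC-adjusted value -1.07. RANBP17, a little-studied relative of XPO7, had 90.5, 59.1 and 88.3 normalized counts in DU145-TFEB, against 210, 302 and 220 in DU145-vector. Although it was the scarcest exportin, its groups did not overlap, and its log2 fold change was -1.62 (SE 0.210, GC-adjusted -0.85). XPO1 had a GC-adjusted value of -0.68. XPOT, which exports transfer RNA, changed by -1.21 and after GC adjustment by -0.37. XPO5, the exporter of microRNA precursors, changed by -0.87 and XPO7 by -0.63, and their GC-adjusted values of -0.83 and -0.53 were close to these. XPO1 was thus neither the most nor the least lowered exportin under either reading. Within the summed level of the 6 exportins per kb, XPO1 took 17.5% ± 1.15 in DU145-TFEB against 25.1% ± 0.812 in DU145-vector (SD, n = 3), with no overlap and an exact permutation p of 0.1. XPOT held 38.7% ± 2.02 and 39.1% ± 0.413, with groups that overlapped and an exact permutation p of 0.9. XPO7 took 18.6% ± 0.831 of the sum in DU145-TFEB against 12.6% ± 0.422.

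**Figure D3:**
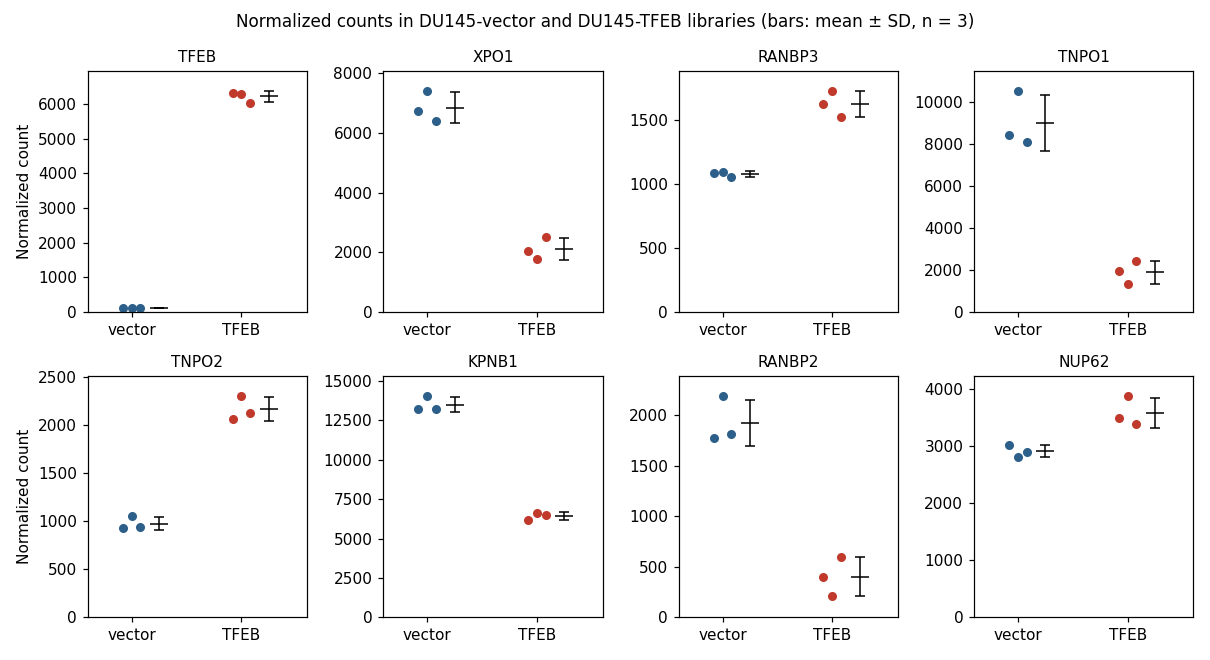
Normalized counts (y axis, from 0) of TFEB and 7 pore and transport genes are shown for each DU145-vector and DU145-TFEB library as points, with bars for the mean ± SD of 3 libraries. XPO1, TNPO1, KPNB1 and RANBP2 were lower in every DU145-TFEB library, and TFEB, TNPO2, RANBP3 and NUP62 were higher, although RANBP3 and NUP62 turned to lower values after GC adjustment.

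The importin beta family, whose members bind cargo or an adaptor and pass through the pore, split in direction. Of 11 listed members 9 fell (81.8%, against 52.4% of all listed genes) and 2 rose (18.2%, against 47.6%). Lower past both cutoffs were 4 with limma (36.4%, against 16.5%) and 4 with DESeq2 (36.4%, against 10.2%). TNPO1 and TNPO2, close relatives that import many RNA-binding proteins, moved apart. TNPO1 (ENSG00000083312, chr5:72816312-72916733, plus strand) had 1941, 1339 and 2433 normalized counts in DU145-TFEB, against 8421, 10532 and 8097 in DU145-vector. It was 4.74-fold lower, with a log2 fold change of -2.28 (SE 0.191, adjusted p = 7.21e-06, limma) and a GC-adjusted value of -1.21. TNPO2 (ENSG00000105576, chr19:12699194-12724011, minus strand) had 2059, 2298 and 2128 normalized counts in DU145-TFEB, against 924, 1048 and 939 in DU145-vector. It was 2.23-fold higher, with a log2 fold change of 1.16 (SE 0.082, adjusted p = 4.10e-06) and a GC-adjusted value of 0.43 (adjusted p = 0.000818 by limma). Neither gene's groups came near each other, and both kept their direction under every alternative tried. The level of TNPO2 per kb was 1.81, 2.92 and 1.49 times that of TNPO1 in DU145-TFEB against 0.187, 0.170 and 0.198 times in DU145-vector, a 10.8-fold change of the ratio. On the log2 scale this ratio changed by 3.43, and by 1.64 with GC adjustment. The pair was chosen after its values were seen, so no test is given. In the order of all 43 genes by level per kb, TNPO1 stood 6th in DU145-vector and 24th in DU145-TFEB, and TNPO2 37th and 11th.

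Among the other importins, KPNB1 (importin beta 1, the partner of importin alpha and the best known of the family) was the most abundant per kb in both groups. Its normalized counts were 6176, 6638 and 6487 in DU145-TFEB against 13214, 14023 and 13239 in DU145-vector, a log2 fold change of -1.07 (SE 0.064, GC-adjusted -0.68). Its share of the family's summed level per kb was 32.1% ± 2.09 in DU145-TFEB against 31.8% ± 0.413 in DU145-vector, with an exact permutation p of 0.9, while that of TNPO1 was 6.04% ± 1.45 against 13.6% ± 1.33 and that of TNPO2 11.8% ± 1.10 against 2.50% ± 0.062. RANBP6, a relative of IPO5, changed by -2.08, IPO11 by -1.81 and IPO7, an importer of ribosomal proteins and histones, by -1.79. Their GC-adjusted values were -1.26, -0.85 and -0.73. IPO7 had 1789, 1179 and 2231 normalized counts in DU145-TFEB, against 5709, 6112 and 5625 in DU145-vector, so that the lowest and highest DU145-TFEB libraries differed by more than the DU145-vector libraries did. IPO5, an importer of ribosomal proteins, changed by -1.49 and IPO8 by -1.35, short of the cutoff, and IPO9 by -0.81, with GC-adjusted values of -0.59, -0.61 and -0.41. TNPO3, which imports serine- and arginine-rich splicing factors, changed by -0.64 and by the same amount after GC adjustment. IPO13, which works in both directions, rose under the authors' scaling, from 530, 423 and 551 to 718, 793 and 723 normalized counts (log2 fold change 0.58), but was lower after GC adjustment (-0.30). Over the 6 roles with 3 or more listed members, 35 shares were compared between the groups, of which 31 reached the smallest possible p of 0.1, and the lowest adjusted p was 0.113.

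**Figure D4:**
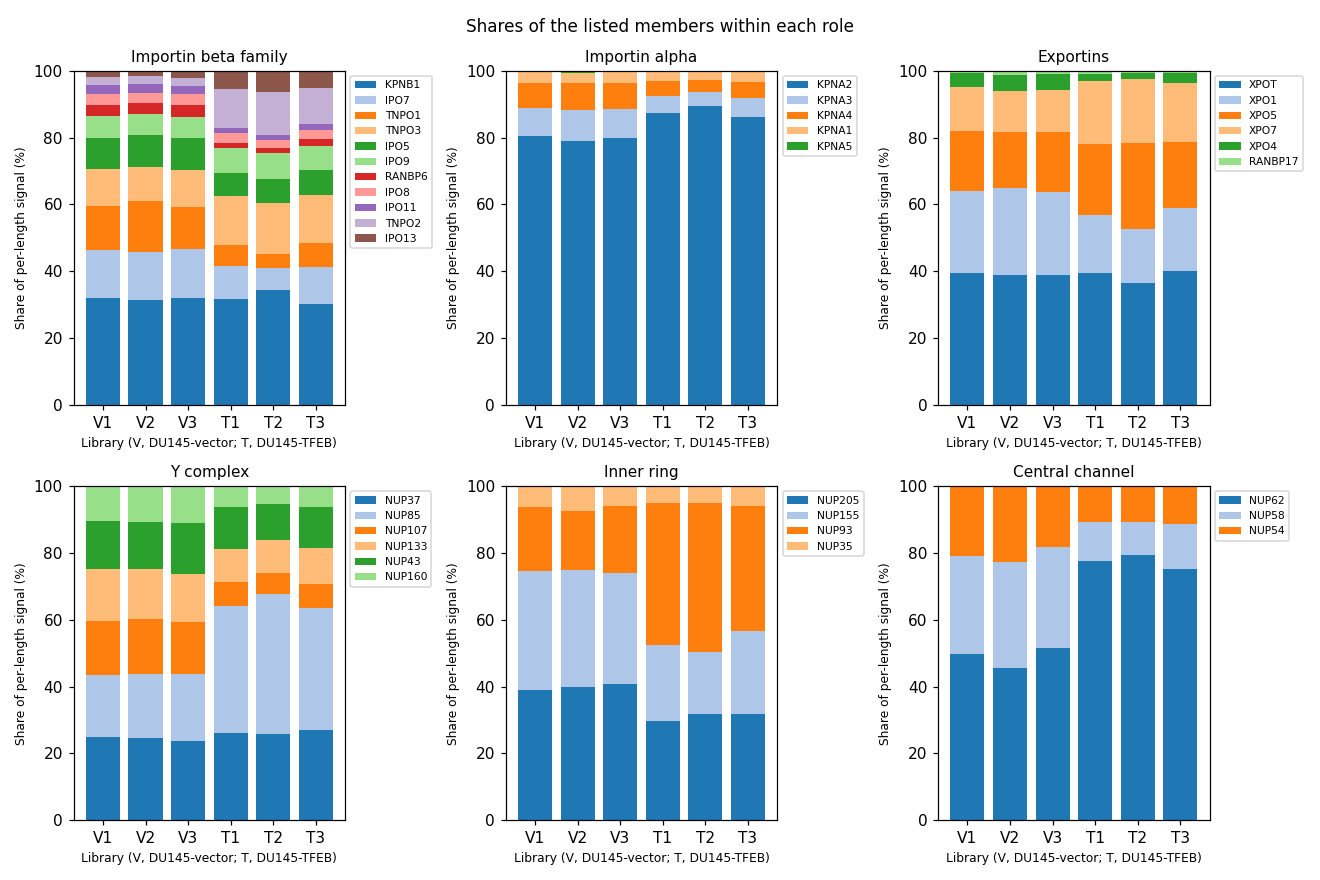
Stacked bars give each gene's share (y axis, %) of the summed normalized count per kb of its role group in each DU145-vector (V) and DU145-TFEB (T) library. TNPO2, NUP85, NUP93 and NUP62 took larger shares in all 3 DU145-TFEB libraries, and KPNB1 and XPOT took shares that overlapped between the groups.

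Importin alpha proteins are the adaptors that read the classical nuclear localization signal. All 5 listed members were lower (100%, against 52.4% of all listed genes). Past both cutoffs were 3 of them with limma (60%, against 16.5%) and 1 with DESeq2 (20%, against 10.2%). KPNA4 changed by -1.77 (SE 0.089), KPNA3 by -1.70 (SE 0.116), KPNA5 by -1.52 (SE 0.295), KPNA1 by -0.997 and KPNA2 by -0.71. KPNA5 had 80.0, 38.2 and 85.1 normalized counts in DU145-TFEB, against 192, 222 and 150 in DU145-vector. The groups did not overlap, but without DU145-TFEB replicate 2 or DU145-vector replicate 2 KPNA5 no longer passed the fold-change cutoff, and RANBP17 likewise. KPNA2, an abundant importin alpha of dividing cells, had 4857, 5596 and 4920 normalized counts in DU145-TFEB, against 8684, 8554 and 7953 in DU145-vector. It had the highest level per kb of the 43 genes in both groups, with means of 1632 and 2674 normalized counts per kb, and it made up 87.8% ± 1.68 of the importin alpha level per kb in DU145-TFEB against 79.8% ± 0.729 in DU145-vector. After GC adjustment KPNA3, KPNA4 and KPNA2 were lower (-0.99, -0.75 and -0.66), while KPNA5 (-0.26, adjusted p = 0.238 by limma) and KPNA1 (-0.05, adjusted p = 0.686) did not pass the test.

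The 2 listed Ran regulators, RANGAP1 and RANBP3, rose under the authors' scaling (100%, against 47.6% of all listed genes). Both were lower after GC adjustment (100%, against 53.7%), so their direction depended on that step. RANGAP1, the activator of Ran's GTPase, had 6582, 7681 and 6650 normalized counts in DU145-TFEB, against 5916, 5381 and 6250 in DU145-vector. Its log2 fold change was 0.25 (SE 0.085, adjusted p = 0.016, limma), the least of the raised genes, and its GC-adjusted value was -0.55. Without DU145-vector replicate 2 it was 0.19 with an adjusted p of 0.0572. RANBP3, a cofactor that helps XPO1 load its cargo, had 1628, 1730 and 1523 normalized counts in DU145-TFEB, against 1092, 1097 and 1054 in DU145-vector. Its log2 fold change was 0.59 (SE 0.077) and its GC-adjusted value -0.30. RANBP9, which shares the name but is a scaffold protein of a ubiquitin ligase complex, changed by -0.993, and by -1.004 after GC adjustment. RAN itself was not analysed here.

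The 4 listed filament and basket genes of the naming rule were lower, of 6 on those lists (100% of both groups, against 52.4% of all listed genes). RANBP2 (also called NUP358, ENSG00000153201, chr2:108719481-108785811, plus strand), the giant protein of the cytoplasmic filaments that binds Ran and RANGAP1, was the most lowered of the 43 genes. It had 401, 212 and 599 normalized counts in DU145-TFEB, against 1776, 2189 and 1812 in DU145-vector, a 4.77-fold difference. Its log2 fold change was -2.37 and its SE of 0.301 was the largest of the 43, since replicates 2 and 3 of DU145-TFEB lay far apart, and its GC-adjusted value was -1.43. RANBP2 shares near-identical stretches with the RGPD genes, of which 4 are listed, so its reads may be split with theirs. NUP88, the other listed filament protein, changed by -1.05, and by -1.02 after GC adjustment. Both listed basket proteins passed the cutoffs with limma (100%, against 16.5% of all listed genes that were lower). With DESeq2 0 of them passed (against 10.2%), and with quantile normalization 1 did (50%, against 7.66%). NUP50, a cofactor of importin alpha, changed by -1.68 and NUP153, which binds importin beta, by -1.62. Their GC-adjusted values were -1.01 and -1.21, among the lowest of the 43 genes.

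The scaffold rings and the central channel were mixed, and in each of these groups the gene richest in GC rose under the authors' scaling while the others fell, although NUP62 was lower after GC adjustment. Of the 6 listed members of the Y complex, the outer ring, 5 fell (83.3%, against 52.4% of all listed genes) and 1 rose (16.7%, against 47.6%). Lower past both cutoffs was 1 of them with limma (16.7%, against 16.5%) and 0 with DESeq2 (against 10.2%). NUP107 changed by -1.65, past both cutoffs, NUP160 by -1.26, NUP133 by -0.997, NUP43 by -0.74 and NUP37 by -0.33, and NUP85 rose by 0.58. NUP85 had 2384, 2750 and 2371 normalized counts in DU145-TFEB, against 1644, 1670 and 1690 in DU145-vector. After GC adjustment NUP107, NUP160 and NUP133 were lower (-0.76, -0.60 and -0.50), NUP43 and NUP85 did not pass the test (-0.16 and 0.12), and NUP37 was higher (0.45). Y complex proteins assemble in equal numbers, but the highest and lowest of the 6 genes per kb stood 6.42 ± 1.01 times apart in DU145-TFEB against 2.27 ± 0.116 times apart in DU145-vector (SD, n = 3). The log2 ratio of NUP85 to NUP107, a pair chosen after its values were seen, changed by 2.24, and by 0.88 with GC adjustment. NUP85 took 38.8% ± 2.79 of the Y complex level per kb in DU145-TFEB against 19.2% ± 0.779, and NUP107 6.89% ± 0.458 against 16.1% ± 0.587.

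In the inner ring, which anchors the scaffold, 3 of 4 listed members fell (75%, against 52.4% of all listed genes) and 1 rose (25%, against 47.6%). NUP155 changed by -1.49, NUP205 by -1.19 and NUP35 by -1.11, with GC-adjusted values of -0.68, -0.70 and -0.27, the last of which did not pass the test (adjusted p = 0.0582, limma). NUP93, which links the inner ring to the central channel, had 3728, 4220 and 3698 normalized counts in DU145-TFEB, against 3278, 2926 and 3325 in DU145-vector. Its log2 fold change was 0.29 (SE 0.082, adjusted p = 0.00677, limma) and it was the highest of the 43 genes after GC adjustment, at 0.66. It took 41.4% ± 3.71 of the inner ring level per kb in DU145-TFEB against 19.0% ± 1.26 in DU145-vector. In the central channel, NUP58 changed by -1.75 and NUP54 by -1.27, while their partner NUP62 rose under the authors' scaling (log2 fold change 0.30) and was lower after GC adjustment (-0.58). NUP62 had 3494, 3877 and 3384 normalized counts in DU145-TFEB, against 3020, 2811 and 2902 in DU145-vector. GC adjustment brought the 3 channel genes within a narrow range, at -0.55, -0.54 and -0.58. NUP210, a protein of the pore membrane, had 5502, 5367 and 5214 normalized counts in DU145-TFEB, against 3182, 3176 and 2980 in DU145-vector. Its log2 fold change was 0.78 (SE 0.064, adjusted p = 6.52e-06, limma), but 0.01 after GC adjustment (adjusted p = 0.882).

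**Figure D5:**
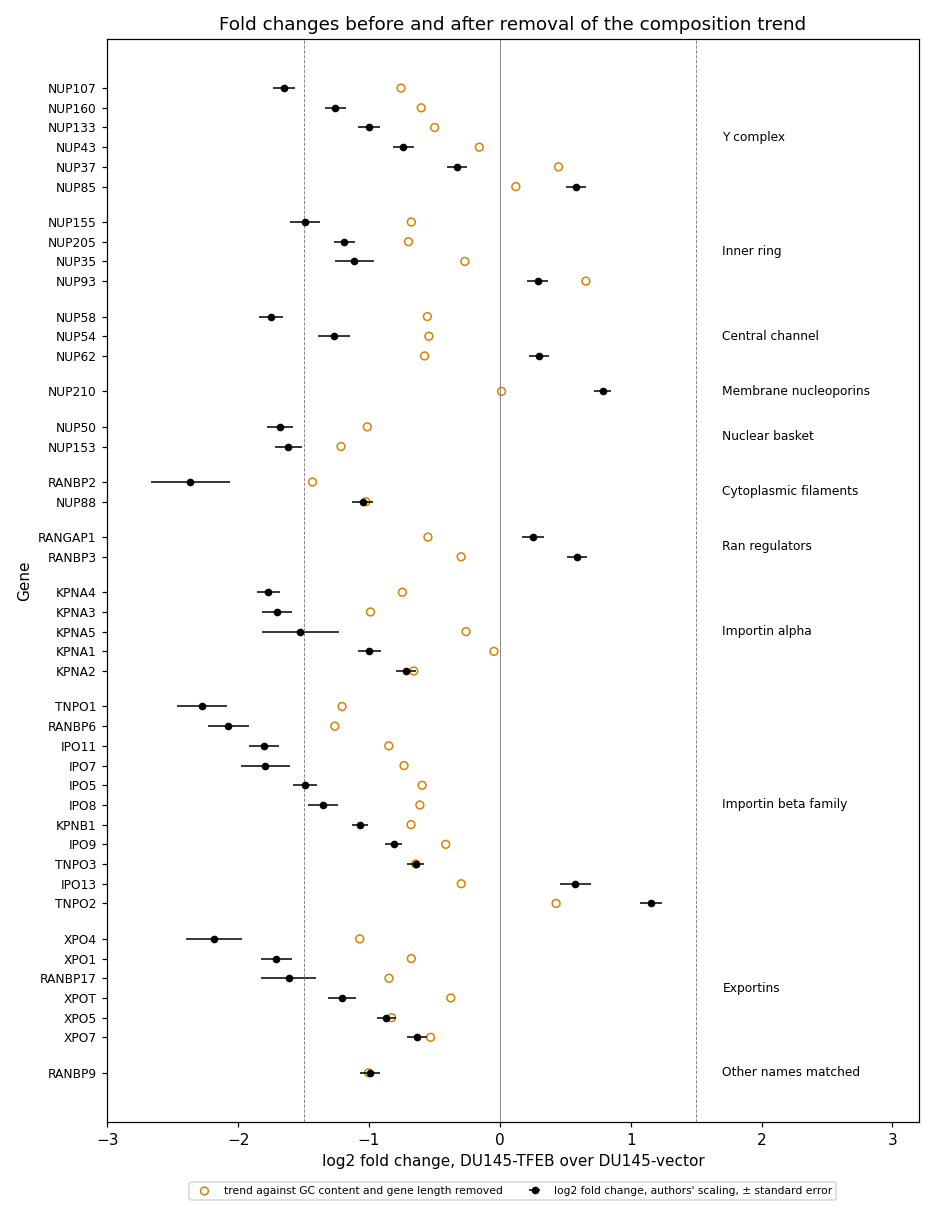
Log2 fold changes of the 43 genes (x axis) by role (y axis) are shown as black points with bars for ± SE under the authors' scaling, and as open orange points after the trend against GC content and length was removed, with dashed lines at -1.5 and 1.5. RANBP3, IPO13, NUP62 and RANGAP1 moved from above to below 0 and NUP37 from below to above 0, while TNPO2 and NUP93 stayed higher and NUP85 (0.12) and NUP210 (0.01) no longer passed the test.

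Genes of the pore and the Ran cycle that the naming rule does not take were read from a separate list, of which 14 of 18 were listed. Of these, 6 fell (42.9%, against 52.4% of all listed genes) and 8 rose (57.1%, against 47.6%), with 3 past both cutoffs, all lower (21.4%, against 16.5%). AHCTF1, or ELYS, which seeds pores on chromatin, changed by -2.43 (GC-adjusted -1.49), TPR, the main basket filament, by -2.18 (-1.31), and CSE1L, the exportin that returns importin alpha to the cytoplasm, by -1.71 (-0.95). NDC1, an anchor in the pore membrane, changed by -1.13, the Y complex member SEH1L by -0.94 and the mRNA export factor RAE1 by -0.32. Their GC-adjusted values were -0.41, -0.02 and -0.38, and SEH1L then did not pass the test (adjusted p = 0.867, limma). SEC13 changed by 0.45, GLE1, on the cytoplasmic face, by 0.40 and NUTF2, which carries Ran into the nucleus, by 0.25. Their GC-adjusted values were 0.18, 0.15 and 0.08, and NUTF2 then did not pass the test (adjusted p = 0.204, limma). The helicases of the cytoplasmic face DDX19A and DDX19B changed by 0.31 and 0.48 (GC-adjusted 0.30 and 0.21), and DDX19B did not pass after adjustment (adjusted p = 0.151, limma). AAAS, also on that face, changed by 0.59 and RCC1, the exchange factor that loads Ran with GTP, by 0.30. Their GC-adjusted values of -0.04 and -0.13 did not pass the test (adjusted p = 0.590 and 0.118, limma). After GC adjustment 5 of the 14 were lower (35.7%, against 53.7%) and 3 were higher (21.4%, against 15.6%). The median of this list was 0.28, beside -1.19 for the 43 genes, and -0.09 after GC adjustment, beside -0.61.

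Some of the 43 genes share reads or bases with others. Exons of 15 of them, XPO1 and TNPO1 among these, overlap a gene on the opposite strand, and the setting for strand is not known. In 9, KPNA2, TNPO1 and IPO7 among them, the annotation holds pseudogenes named after the gene, which could take or give reads. Among cell type markers, 3 of 5 epithelial ones were listed, and KRT8 had 16978 ± 3348 normalized counts in DU145-TFEB against 26868 ± 1956 in DU145-vector (SD, n = 3), a log2 fold change of -0.68 (GC-adjusted -1.40). Of 7 markers of other cell types 0 were listed, which says nothing of their level because the table holds a part of the genes.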

How the data were processed

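RNA-sequencing libraries of 3 DU145-TFEB and 3 DU145-vector samples, grouped and numbered by their labels, were analysed. The submitters' processing notes name CASAVA 1.8, HISAT2 2.1.0, edgeR and GRCh38, and the study's methods name DESeq2. The counting program and its strand setting are not given in the sources used here. The authors deposited a normalized signal, each gene's count divided by 1 size factor per library (0.950 to 1.099). Gene length is also deposited by the authors. Their group means and their columns of log2 fold changes, p-values and adjusted p-values were not used. Other per-sample columns numbered 0. The table holds a part of the genes, and 3 of the 10542 had an absolute log2 fold change under 0.2. A further 12 annotated genes that fit the naming rule (IPO4, KPNA6, KPNA7, NUP188, NUP210L, NUP214, NUP62CL, NUP98, RANBP1, RANBP10, RANBP3L and XPO6) were not analysed here.

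The pore and transport genes, the lists and the alternatives were chosen with earlier results of these data known. The design named limma where values are normalized and edgeR where they are raw counts, so limma 3.58.1 (R 4.3.3) with a mean-variance trend was fitted to log2(value + 1). A minimum mean of 1 removed 0 of the listed genes. Fold changes on this scale understate those of low genes. Whole reads were recovered from the steps of the signal (100% of values whole within 0.01 reads) and tested with DESeq2 1.42.0 and edgeR 4.0.16 as alternatives. GC content came from the longest GENCODE 29 transcript of 10537 genes, whose positions equal those of the table. The trend against GC content and length was removed from each library by loess (span 0.5). Named genes were TFEB, XPO1, RAN, those past both cutoffs, the highest and lowest of each role, the highest per kb, and others to complete a role. Gene pairs were chosen after their values were seen. The scripts were tested on simulated counts. Libraries of 1 group differed by a chi-square per gene of 2.97 to 27.2, beyond sampling noise, and those of different groups by 165 to 326. Each library was counted as a replicate, although these values do not show that libraries came from separate cultures.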

Additional observations from a re-analysis of the deposited data

How the results depend on the processing

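Of 43 genes and TFEB, all 44 kept their direction and their side of an adjusted p of 0.05 with a pseudocount of 0.5 or 5, a mean of at least 10 or no filter, TMM, library size and edgeR. With DESeq2, DESeq2 size factors and quantile normalization NUP37 alone lost its call (-0.09, -0.09 and -0.13). With the GC and length trend removed, RANBP3 (-0.30), IPO13 (-0.30), NUP37 (0.45), NUP62 (-0.58) and RANGAP1 (-0.55) reversed, and NUP210, KPNA1, NUP43, NUP35, NUP85 and KPNA5 lost their call. The cause of the trend was not tested. The 15 genes past both cutoffs became 8 with DESeq2 and with DESeq2 size factors, 9 with quantile normalization, 14 with edgeR and 0 with the trend removed. Of all listed genes 16.5% were lower past both cutoffs. That share was 10.2% with DESeq2, 7.66% with quantile normalization, 14.5% with edgeR and 4.26% with the trend removed. With a cutoff of 1 the members past it were 25 lower and 1 higher. All listed genes were not counted at that cutoff, so these counts have no background and say nothing particular of the members. The 8, 9 and 14 genes were all among the 15. The count of higher genes was 3 with the trend removed.

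The median of -1.19 was -0.95 with DESeq2 and its size factors, -1.11 with edgeR and TMM, -0.998 with quantile normalization and -0.61 with the trend removed. The median of all listed genes moved by 0.24 with DESeq2 and 0.32 with quantile normalization, and relative to it the members' median was -0.83 under the authors' scaling, -0.83 with DESeq2, -0.97 with quantile normalization and -0.31 with the trend removed. Of all listed genes past both cutoffs 86.7% were lower, against 69.0% with DESeq2 and 58.9% with quantile normalization. Leaving out 1 library gave 13 to 17 genes past the cutoffs, 7 or 8 higher genes and medians from -1.25 to -1.10. The lower genes past both cutoffs among all 10542 then numbered 1289 to 2048, against 1741 with every library. RANBP17 and KPNA5 lost the cutoff without replicate 2 of either group, IPO5 and NUP155 passed it without replicate 3 of either, and IPO5 also without DU145-vector replicate 1.

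In the lists, higher pore and Ran genes went from 8 to 3 with the trend removed (57.1% to 21.4%). Higher mRNA export genes went from 7 to 3 (50% to 21.4%, with 4 genes without DU145-vector replicate 2, otherwise up to 7). Higher lamina genes went from 7 to 1 (46.7% to 6.67%). Over all listed genes the share that was higher went from 47.6% to 15.6% at the same step. Lower mRNA export genes went from 7 to 3 with DESeq2, DESeq2 size factors and quantile normalization. Over all listed genes the share that was lower went from 52.4% to 43.9% with DESeq2 and 43.7% with quantile normalization. Same-numbered libraries did not deviate together (correlations -0.02, -0.25 and -0.14), so numbers were not taken to pair them. With a replicate block 35 genes were lower, 8 higher and 15 past both cutoffs, and all 44 kept their call.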

Other observations

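mRNA leaves the nucleus by a separate route, in which the THO complex and its adaptors load the receptor NXF1. Of 19 genes on a list of this route 14 were listed, of which 7 were lower and 7 higher in DU145-TFEB, against 52.4% lower and 47.6% higher over all listed genes. After GC adjustment 7 were lower (50%, against 53.7%) and 3 higher (21.4%, against 15.6%). THOC2, the scaffold of the THO complex, had 356, 221 and 507 normalized counts in DU145-TFEB, against 1610, 1775 and 1532 in DU145-vector, with a log2 fold change of -2.26 (GC-adjusted -1.17). THOC1 changed by -1.57 (GC-adjusted -0.54), and these were the 2 genes past both cutoffs (14.3%, against 16.5% of all listed genes). THOC6 rose by 0.58 but had a GC-adjusted value of -0.43, and the export receptor NXF1 changed by -0.31 (GC-adjusted -0.88). THOC3 rose by 0.33 and THOC5 by 0.27, and THOC7 changed by -0.36. After GC adjustment THOC3 stayed higher (0.29, adjusted p = 0.022, limma). THOC5 (0.18, adjusted p = 0.0541, limma) and THOC7 (-0.02) then did not pass the test. Subunits of the same THO complex thus lay on both sides of 0 under the authors' scaling and after GC adjustment.

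The nuclear lamina lines the envelope in which pores sit. Of 17 genes on its list 15 were listed, 8 lower (53.3%, against 52.4% of all listed genes) and 7 higher (46.7%, against 47.6%). After GC adjustment 11 were lower (73.3%, against 53.7%) and 1 was higher (6.67%, against 15.6%). TOR1AIP1 (-1.65, GC-adjusted -0.72) and SYNE2 (-1.62, GC-adjusted -0.72), which link the lamina or the cytoskeleton to the envelope, passed both cutoffs (13.3%, against 16.5%). Among the lamins, LMNB1 changed by -0.40 (GC-adjusted -0.84) and LMNA by 0.35 (GC-adjusted -0.65). LMNB2 changed by 0.95, from 10883, 9376 and 10489 to 19273, 22053 and 18301 normalized counts. After GC adjustment LMNB2, at -0.04, did not pass the test (adjusted p = 0.504, limma).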
